A study of Homo sapiens with 20 samples.

Results

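The mRNA of 9 chemokine genes whose products draw neutrophils, monocytes and other leukocytes was followed through SUM159PT cells, an established line of triple-negative breast cancer, in 7 groups of cultures. The genes were taken by name from a table of read counts for 27864 Entrez gene IDs: CXCL1, CXCL2, CXCL3, CXCL5, CXCL6 and CXCL8 of the CXC family, and CCL2, CCL5 and CCL20 of the CC family. All 9 were in the table, and 6 had enough reads to be tested among 16323 genes. CXCL5, CXCL6 and CCL2 were too low to test and are described by their reads.

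The 20 libraries came from wild-type cells (wt) and from 2 cell pools in which NNMT, the enzyme that methylates nicotinamide, was targeted with CRISPR guides. The pool called KOs was made with 1 guide at the transcription start site and the pool called KOd with a pair of guides that remove exon 1, and each pool is a mixture of several clones. Adherent cells (2D) of wt, KOs and KOd were kept in Ham's F12 with 5% calf serum, insulin and 1 µg/ml hydrocortisone and taken at 80% confluency, with n = 3 libraries each. Secondary tumorspheres (3D) of the same 3 kinds of cell were floating cultures in serum-free medium with B27, 20 ng/mL EGF and 20 ng/mL basic FGF, grown for 6 days, dissociated and grown for 6 more, with n = 3 each. The seventh group, called tumorsphere medium here, was wt cells that stayed attached and were moved from standard medium to the 3D medium (n = 2). The 2D and 3D groups thus differ in serum, hydrocortisone, growth factors, attachment and RNA kit together, and those differences cannot be told apart in the pools.

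Chemokines are small secreted proteins that guide leukocytes along a concentration gradient. CXC chemokines with the residues Glu-Leu-Arg before the first cysteine, here CXCL1 to CXCL3, CXCL5, CXCL6 and CXCL8, bind CXCR2 and attract neutrophils, whereas CCL2 draws monocytes through CCR2, CCL5 draws T cells and monocytes through receptors that include CCR1, and CCL20 draws dendritic cells and lymphocytes through CCR6. Most of these genes are classical targets of NF-kB, which interleukin-1 and tumour necrosis factor switch on, and glucocorticoids are known to repress several of them.

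Library totals lay between 26396964 and 43744817 reads. The 6 labelled KOs libraries had 37316513 to 43744817 reads and the other 14 at most 32016875, and ribosomal RNA genes took 0.696% to 2.38% of reads in the former and 2.56% to 8.31% in the latter, so such a difference and the pool cannot be told apart. NNMT was at 117 ± 13.3 CPM (reads relative to library size, scaled by TMM; mean and SD of 3) for wt 2D, 4.55 ± 0.139 for KOd 2D, but 106 ± 27.6 for labelled KOs 2D, and 98.3 ± 27.5, 5.15 ± 0.497 and 84.8 ± 1.75 in the same cells in 3D. NNMT mRNA in the KOs pool was thus near that of wt. NNMT protein was not measured here, so whether it was lost is not known, and that pool is called labelled KOs throughout. In 3 groups 1 library was singled out as farthest from its partners: replicate A of labelled KOs 2D, and replicate C of both wt 3D and KOd 3D. Their root-mean-square log2 distances from the partners' mean were 0.747, 0.585 and 0.452. Replicates B and C of labelled KOs 2D were at 0.450 and 0.564, so that whole group was uneven. The 3 libraries named are thus not the 3 farthest of all. VIM, a mesenchymal marker, averaged 2652 to 5511 CPM, and CDH1, EPCAM, ESR1 and PGR at most 0.277 CPM in any group, as is known of this line.

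Promoter sequences are shown first because the CXC members share the exact sequence GGAATTTCC, which was not found in the CC member. RefSeq (GRCh38.p14) promoters were found for 7 of the 9 genes, and the 150 bases before the start are printed 5′ to 3′ for 4 of them. Capitals mark matches to the kappaB core GGAATTTCC, to the AP-1 site TGANTCA, or to the core promoter element TATAAA. CXCL1 and CXCL2 stand for the closely related copies, CXCL8 has the highest mean per length in each group, and CCL20 is the 1 tested CC member with a promoter in the table.
CXCL1: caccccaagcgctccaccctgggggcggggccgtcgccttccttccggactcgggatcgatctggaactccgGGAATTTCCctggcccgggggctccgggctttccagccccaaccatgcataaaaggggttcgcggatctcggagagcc
CXCL2: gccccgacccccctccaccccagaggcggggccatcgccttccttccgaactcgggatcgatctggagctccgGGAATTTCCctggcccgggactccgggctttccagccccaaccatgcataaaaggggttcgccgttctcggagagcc
CXCL8: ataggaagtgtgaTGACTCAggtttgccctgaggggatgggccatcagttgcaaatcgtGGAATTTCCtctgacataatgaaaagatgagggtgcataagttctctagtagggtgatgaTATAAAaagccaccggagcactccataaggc
CCL20: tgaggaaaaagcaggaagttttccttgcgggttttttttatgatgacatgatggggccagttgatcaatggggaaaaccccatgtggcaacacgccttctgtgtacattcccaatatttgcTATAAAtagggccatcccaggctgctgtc
In the order printed, these windows are chr4:73869243-73869392 (plus strand), chr4:74099196-74099345 (minus), chr4:73740419-73740568 (plus) and chr2:227813692-227813841 (plus). Over the 250 bases before the start, searched on both strands, GGAATTTCC was present in 6 of the 7 members, that is in each CXC gene, and in 0.428% of 27305 promoters. It began 77 or 78 bases before the start in CXCL1, CXCL2 and CXCL3 and 89 to 91 bases before it in CXCL5, CXCL6 and CXCL8. The looser GGANNTTCC, which takes in the same sites, gave the same 6 genes and 3.88% of promoters. TGANTCA was found in CXCL8 alone of the members (6.6% of promoters), and TATAAA in CXCL8 and CCL20 (11.1%). In an alignment of the printed bases CXCL1 was 88.8% identical to CXCL2 and 45.5% to CXCL8, and the window of CXCL8 was 50.0% identical to that of CCL20. A match describes letters in a window and does not show that a factor binds there. Other forms of kappaB site were not searched for, so the lack of a match in CCL20 does not show that it has none.

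Per gene length (RPKM, CPM divided by the deposited gene length in kilobases) the 9 genes together summed to 18.6 ± 3.37 in wt 2D (SD, n = 3), 278 ± 28.4 in tumorsphere medium (n = 2) and 75.4 ± 19.4 in wt 3D. The pools summed to 36.5 ± 21.5 and 41.6 ± 1.17 RPKM in 2D, labelled KOs first, and to 382 ± 6.94 and 97.1 ± 8.81 in 3D. CXCL8 had the highest mean of the members in each of the 7 groups, with 57.1% ± 3.93 of the sum in wt 2D and 59.2% ± 1.28 in tumorsphere medium. KOd 3D was the most mixed group, with CXCL8 at 35.6% ± 7.14, CCL5 at 28.6% ± 8.97 and CXCL2 at 25.0% ± 2.58 of its sum. In its replicate C CCL5 exceeded CXCL8 (39.8 against 28.0 RPKM). CCL20 took 17.3% ± 4.66 in wt 2D and 1.89% ± 0.283 in wt 3D.

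**Figure D1:**
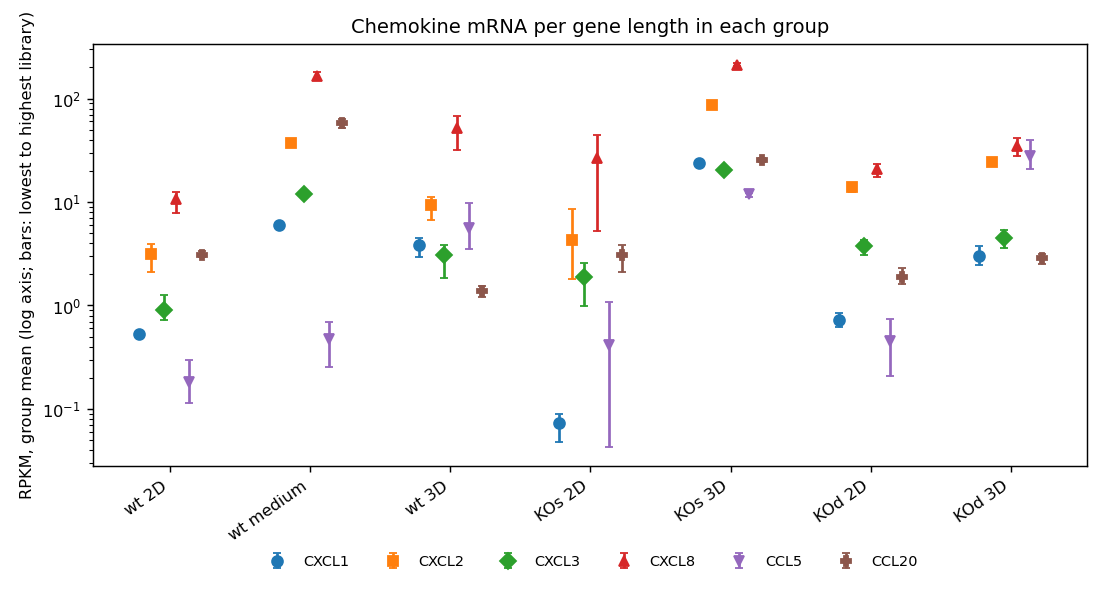
Chemokine mRNA per gene length in each group. The vertical axis is RPKM on a log axis, points are group means and bars run from the lowest to the highest library; the CXCL8 mean is highest in every group, and in KOd 3D the mean of CCL5 lies at 28.0 RPKM, close below CXCL8 at 34.4, with overlapping bars.

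CXCL8 (chromosome 4, 73740569 to 73743716), which encodes interleukin-8, ranged from 10.7 RPKM in wt 2D to 213 in labelled KOs 3D. It was measured at 19.9, 21.5 and 13.3 CPM in wt 2D, at 256 and 305 in tumorsphere medium, and at 95.7, 116 and 53.7 in wt 3D (replicates A, B and C, as for all genes here). The 3 groups did not overlap, and attached cells in the 3D medium held more CXCL8 than tumorspheres. CXCL8 rose 15.4-fold in tumorsphere medium (log2 fold change 3.94 ± 0.52, SE, adjusted p = 1.9e-05, edgeR) and 4.84-fold in wt 3D (2.27 ± 0.47, adjusted p = 0.00041). In bulk RNA, more cells with CXCL8 and more CXCL8 per cell cannot be told apart, and the same holds for the other members.

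**Figure D2:**
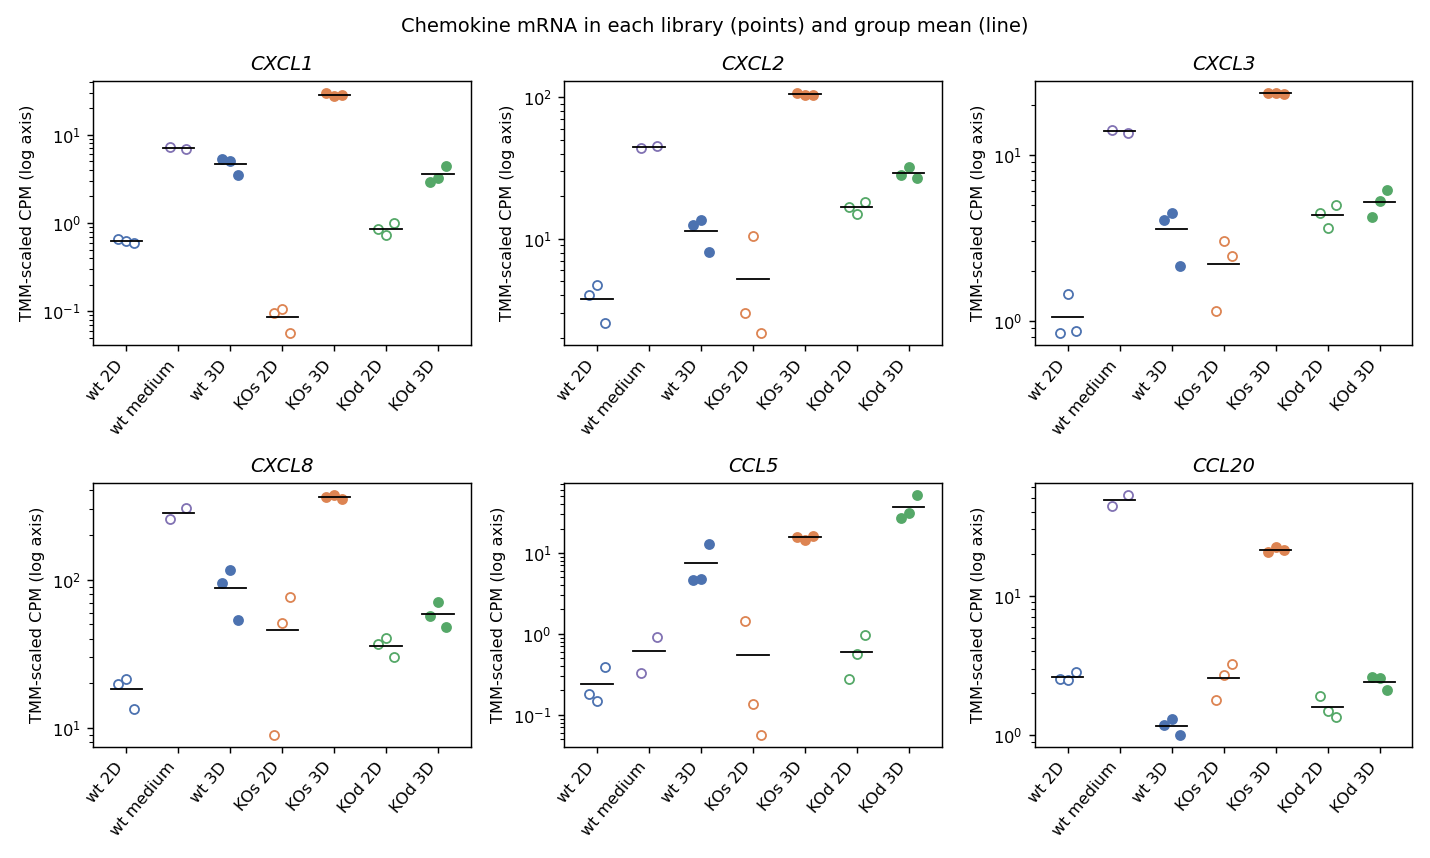
Level of each tested chemokine in every library. The vertical axis is TMM-scaled CPM on a log axis, points are libraries (open for attached cells) and lines are group means; labelled KOs 3D holds the highest mean of CXCL1, CXCL2, CXCL3 and CXCL8, KOd 3D that of CCL5, and tumorsphere medium that of CCL20.

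In 2D the pools held 9.00, 51.5 and 76.0 CPM of CXCL8 in labelled KOs and 36.8, 40.2 and 29.9 in KOd. The labelled KOs libraries spread from below to above wt, and each KOd library lay above wt. In 3D labelled KOs reached 364, 374 and 351 CPM, 8.00-fold above their 2D cells (3.00 ± 0.47, adjusted p = 2.8e-05; 3.59 without labelled KOs 2D C). KOd 3D held 57.2, 70.9 and 47.8 CPM, and its change from 2D of 0.72 ± 0.45 missed the threshold (adjusted p = 0.17), although the groups did not overlap. Against wt 3D, CXCL8 was 4.11-fold higher in labelled KOs 3D (2.04 ± 0.45, adjusted p = 0.00095). The KOd 3D difference from wt 3D was -0.59 ± 0.44 (adjusted p = 0.33), with overlapping libraries. With a replicate block in wt 3D and KOd 3D alone, where libraries of the same letter deviated together, that difference was -0.53 and passed.
Against wt 2D, CXCL8 was called higher in labelled KOs 2D (1.31 ± 0.46, adjusted p = 0.023) despite overlapping libraries. The call was lost without wt 2D C (1.13), without labelled KOs 2D B (1.21) or without labelled KOs 2D C (0.72). The KOd 2D difference from wt 2D was 0.96 ± 0.46 (adjusted p = 0.098). Without labelled KOs 2D A the KOd values of 0.96 in 2D, 0.72 for 3D culture and -0.59 in 3D all passed at these sizes. The 7 groups share 1 estimate of the spread per gene. The uneven labelled KOs 2D libraries thus enter the SE and p-value of comparisons that do not include them.

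CXCL2 and CXCL3, which attract neutrophils through CXCR2, are neighbouring copies with CXCL1 on chromosome 4 (74097040 to 74099195, 74036589 to 74038689 and 73869393 to 73871308). Of all 50-base windows of the transcripts of CXCL1, CXCL2 and CXCL3, 5.73%, 9.24% and 5.26% also occur in another of the 3, so reads could have been split between them, and values that set one against another carry that uncertainty. CXCL2 was at 4.03, 4.73 and 2.55 CPM in wt 2D, 44.0 and 45.3 in tumorsphere medium, and 12.5, 13.5 and 8.01 in wt 3D. It rose 11.8-fold in tumorsphere medium (3.56 ± 0.42, adjusted p = 5.7e-06) and 3.01-fold in wt 3D (1.59 ± 0.39, adjusted p = 0.0018). CXCL3 was at 0.842, 1.45 and 0.863 CPM in wt 2D, 14.1 and 13.6 in tumorsphere medium, and 4.04, 4.47 and 2.13 in wt 3D, a rise of 13.1-fold (3.71 ± 0.34, adjusted p = 4.2e-07) and 3.36-fold (1.75 ± 0.33, adjusted p = 0.00019). For both genes the wt 3D libraries lay between those of wt 2D and those of tumorsphere medium, without overlap.
In labelled KOs, CXCL2 went from 2.98, 10.4 and 2.16 CPM in 2D to 107, 104 and 104 in 3D, a rise of 4.34 ± 0.39 (adjusted p = 5.9e-08; 5.34 without labelled KOs 2D B). CXCL3 went from 1.15, 3.01 and 2.44 CPM to 23.5, 23.5 and 23.3 (3.42 ± 0.30, adjusted p = 3.8e-08). The 2D libraries of this pool were uneven and its 3D libraries nearly equal. In KOd both genes were already higher in 2D. There CXCL2 was at 16.7, 14.9 and 18.4 CPM, 4.41-fold above wt 2D (2.14 ± 0.39, adjusted p = 0.00024), and CXCL3 at 4.43, 3.59 and 5.00, 4.11-fold above it (2.04 ± 0.33, adjusted p = 7.5e-05).
KOd 3D held 28.1, 32.1 and 27.1 CPM of CXCL2 and 4.19, 5.27 and 6.16 of CXCL3. Only the CXCL2 libraries were all above those of KOd 2D. Within KOd the change with 3D culture was 0.80 ± 0.35 for CXCL2 (adjusted p = 0.051) and 0.26 ± 0.28 for CXCL3 (adjusted p = 0.43). CXCL2 lay beside the threshold. The same change passed in 9 of 10 other settings, at 0.77 (a replicate block over all libraries) to 0.85, and in 4 of the 20 fits without 1 library: without wt 3D C (0.80) and without labelled KOs 2D A (0.81), B (0.80) or C (0.81). Against wt 3D, KOd 3D was higher in CXCL2 (1.35 ± 0.36, adjusted p = 0.0065), and its CXCL3 difference was 0.55 ± 0.29 (adjusted p = 0.15).
Labelled KOs 2D differed from wt 2D by 0.45 ± 0.40 in CXCL2 (adjusted p = 0.36), a value that was -0.55 without labelled KOs 2D B. Their CXCL3 was called higher (1.05 ± 0.34, adjusted p = 0.015), and the call was lost without wt 2D A (0.91), wt 2D C (0.93) or labelled KOs 2D B (0.75). In 3D both genes were higher in labelled KOs than in wt, CXCL2 by 9.24-fold (3.21 ± 0.37, adjusted p = 1e-06) and CXCL3 by 6.59-fold (2.72 ± 0.29, adjusted p = 3.6e-07).

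CXCL1, the third of these copies and also a CXCR2 ligand, had the widest range of the tested members, with a 329-fold ratio between its highest and lowest group mean. It was at 0.659, 0.633 and 0.588 CPM in wt 2D, 7.35 and 6.88 in tumorsphere medium, and 5.33, 5.00 and 3.52 in wt 3D. That was a rise of 11.3-fold (3.49 ± 0.22, adjusted p = 4.9e-09) and of 7.33-fold (2.87 ± 0.21, adjusted p = 2.9e-09). Labelled KOs 2D held 4, 4 and 2 reads of CXCL1 (0.0955, 0.107 and 0.0568 CPM), 6.92-fold less than wt 2D (-2.79 ± 0.34, adjusted p = 2.7e-06), without overlap. Labelled KOs 3D held 29.7, 27.8 and 28.1 CPM, so this pool was the lowest of the 7 groups in 2D and the highest in 3D. The rise was 312-fold (8.29 ± 0.26, adjusted p = 1.2e-13), and its size rests on the 10 reads in 2D. With so few reads the SE of both CXCL1 values for this pool, which was derived from the test, may be too small.
KOd went from 0.858, 0.733 and 1.00 CPM of CXCL1 in 2D to 2.93, 3.26 and 4.48 in 3D (2.03 ± 0.20, adjusted p = 9.5e-08). Its difference from wt was 0.46 ± 0.24 in 2D (adjusted p = 0.14) and -0.38 ± 0.17 in 3D (adjusted p = 0.098), and the latter passed without wt 3D C (-0.54) or without KOd 3D C (-0.58). Labelled KOs 3D were 6.16-fold above wt 3D (2.62 ± 0.17, adjusted p = 7.6e-10).
The ratio of CXCL1 to CXCL2 per gene length, taken within each library, was 0.135 to 0.233 in wt 2D, 0.153 to 0.168 in tumorsphere medium and 0.373 to 0.443 in wt 3D. It was 0.0104 to 0.0323 in labelled KOs 2D and 0.270 to 0.279 in labelled KOs 3D, and 0.0496 to 0.0550 in KOd 2D and 0.103 to 0.167 in KOd 3D. In wt and in both pools every 3D library thus had more CXCL1 per CXCL2 than every 2D library. The ratio of CXCL3 to CXCL2 overlapped between wt 2D (0.217 to 0.352) and wt 3D (0.276 to 0.343). When the reads of the 3 copies were summed, labelled KOs 2D differed from wt 2D by 0.45, short of the threshold, and KOd 3D exceeded wt 3D by 0.95, past it.

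CCL20 (chromosome 2, 227813842 to 227817556) was the member that differed most between the 3D medium and tumorspheres. It was at 2.52, 2.50 and 2.82 CPM in wt 2D and at 43.8 and 52.8 in tumorsphere medium, an 18.5-fold rise (4.21 ± 0.20, adjusted p = 1.3e-10). In wt 3D it was at 1.19, 1.31 and 1.01 CPM, 2.22-fold below wt 2D (-1.15 ± 0.21, adjusted p = 9.7e-05) and 41.1-fold below tumorsphere medium (-5.36 ± 0.21, adjusted p = 2e-12). For CCL20, wt 3D was thus the lowest of the 7 groups and tumorsphere medium the highest. Its ratio to CXCL8 per gene length was 0.236 to 0.429 in wt 2D, 0.347 to 0.351 in tumorsphere medium and 0.0229 to 0.0381 in wt 3D.
Labelled KOs held 1.79, 2.68 and 3.24 CPM of CCL20 in 2D and 20.5, 22.2 and 21.4 in 3D, a rise (3.06 ± 0.18, adjusted p = 2.7e-10) where wt fell. KOd held 1.92, 1.50 and 1.35 CPM in 2D and 2.63, 2.56 and 2.10 in 3D, a rise of 0.61 ± 0.20 (adjusted p = 0.011) that did not pass without KOd 2D C (0.51). Against wt, labelled KOs were 18.1-fold higher in 3D (4.18 ± 0.20, adjusted p = 1.5e-11). KOd was 1.64-fold lower than wt in 2D (-0.72 ± 0.20, adjusted p = 0.0067) and 2.07-fold higher in 3D (1.05 ± 0.20, adjusted p = 0.00061). The 2D difference of labelled KOs from wt was -0.03 ± 0.19 (adjusted p = 0.91) and had no settled sign, at 0.18 without labelled KOs 2D A, 0.03 without wt 2D C, and 0.01 without wt 3D C or without tumorsphere medium B.

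CCL5 (chromosome 17, 35871491 to 35880360), also known as RANTES, was called higher in tumorspheres and not in attached cells in the 3D medium. It was at 0.183, 0.149 and 0.392 CPM in wt 2D and at 0.331 and 0.904 in tumorsphere medium, which overlap (1.34 ± 1.11, adjusted p = 0.39). The 95% interval of that difference, -1.07 to 3.75, leaves room for a change in either direction. In wt 3D CCL5 was at 4.65, 4.70 and 13.0 CPM, 30.6-fold above wt 2D (4.93 ± 0.77, adjusted p = 2.6e-05; 4.27 without wt 3D C). Wt 3D was 12.1-fold above tumorsphere medium (3.60 ± 0.79, adjusted p = 0.0007), by 2.94 without wt 3D C and by 4.49 without tumorsphere medium B. Of the 50-base windows of CCL5, 16.0% also occur in transcripts of other genes.
KOd went from 0.274, 0.558 and 0.966 CPM of CCL5 in 2D to 27.3, 30.8 and 52.2 in 3D, the highest of the 7 groups (5.93 ± 0.67, adjusted p = 5.2e-07). Labelled KOs went from 1.43, 0.134 and 0.0568 CPM to 15.9, 14.5 and 16.1 (4.76 ± 0.64, adjusted p = 5.1e-06). Replicate A was far above B and C in labelled KOs 2D, and without it that rise was 7.27. The difference of labelled KOs 2D from wt 2D turned from 1.24 ± 0.97 (adjusted p = 0.3) to -1.27 without that library. The KOd 2D difference from wt 2D was 1.31 ± 1.00 (adjusted p = 0.31).
In 3D, CCL5 was 4.95-fold higher in KOd than in wt (2.31 ± 0.52, adjusted p = 0.0021; 2.98 without wt 3D C). Labelled KOs 3D differed from wt 3D by 1.06 ± 0.51 (adjusted p = 0.083), with no overlap. That difference passed without wt 3D C (1.71), without labelled KOs 2D A (1.06) or without labelled KOs 2D C (1.06), and in 4 of 9 other settings.

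CXCL5 and CXCL6, attractants of neutrophils, and CCL2, a main attractant of monocytes, were at or near 0. CXCL5 had 0 to 5 reads per library, CXCL6 0 to 2 and CCL2 0 to 8. CXCL6 reads appeared in 2 libraries of labelled KOs 3D and in 1 of KOd 2D, and 94 bases of its exons overlap the pseudogene PPBPP1 on the same strand. CCL2 had 0 reads in the 3 wt 2D libraries, 3, 1 and 3 in wt 3D, and 3, 8 and 2 in labelled KOs 3D. In a fit without the filter on low counts, none of these genes passed in any of the 13 comparisons. The nearest was CCL2 in wt 3D against wt 2D (4.39, adjusted p = 0.062, edgeR). Whether these genes changed is not settled at this depth, where 3 reads over the 3 wt 2D libraries amount to 0.0377 CPM.

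Counted over the 6 tested members, tumorsphere culture raised 5 and lowered 1 in wt, where 33.3% of all tested genes rose and 30.4% fell. In labelled KOs it raised 6 and lowered 0, against 32.9% and 32.1%. In KOd it raised CXCL1, CCL5 and CCL20, 3 members, and lowered 0, against 35.2% and 31.2%. The count in KOd turned on CXCL2, CXCL8 and CCL20. It was 5 without labelled KOs 2D A, where CXCL2 and CXCL8 also passed, and 2 without KOd 2D C, where CCL20 did not. Tumorsphere medium raised 5 and lowered 0 in wt, where 15.6% of genes rose and 16.4% fell. The median change of the 6 members was 2.01 in wt 3D, 3.88 in labelled KOs 3D, 0.76 in KOd 3D and 3.64 in tumorsphere medium, against 0.04, 0.02, 0.07 and 0 over all genes. Between wt 3D and tumorsphere medium, CCL5 was higher in 3D, 1 member, and the other 5 were lower, against 32.8% and 30.0%. For CXCL1 that difference was -0.62 ± 0.19 (adjusted p = 0.0074), and the call was lost without tumorsphere medium A (-0.58). Several of these comparisons share the wt 2D or wt 3D libraries.

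**Figure D3:**
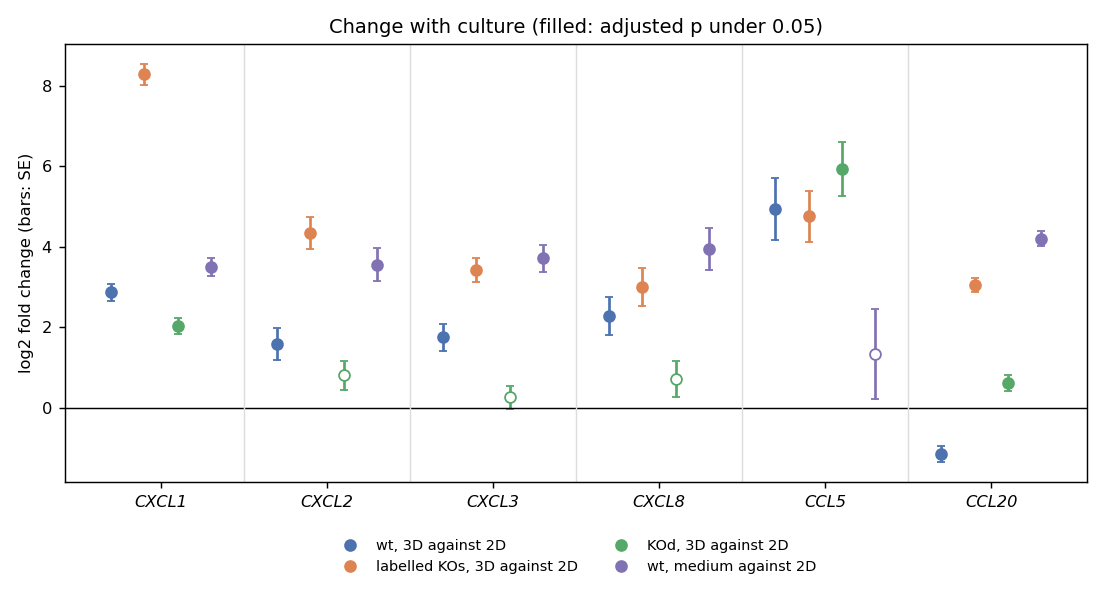
Change of the 6 tested chemokines with culture, as log2 fold change with SE; filled points passed at an adjusted p under 0.05. Tumorsphere medium raised each gene but CCL5 past the threshold, and CCL20 fell in wt 3D (-1.15) and rose in labelled KOs 3D (3.06).

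Against wt in 2D, labelled KOs had 2 members higher and 1 lower (background 27.7% and 25.5%), and KOd had 2 higher and 1 lower (22.1% and 22.5%). Against wt in 3D, labelled KOs had 5 higher and 0 lower (27.8% and 28.5%), and KOd had CXCL2, CCL5 and CCL20, 3 members, higher and 0 lower (16.5% and 17.5%). The median over the 6 members was 2.67 for labelled KOs and 0.80 for KOd in 3D, against 0.02 and 0.00 over all genes.

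**Figure D4:**
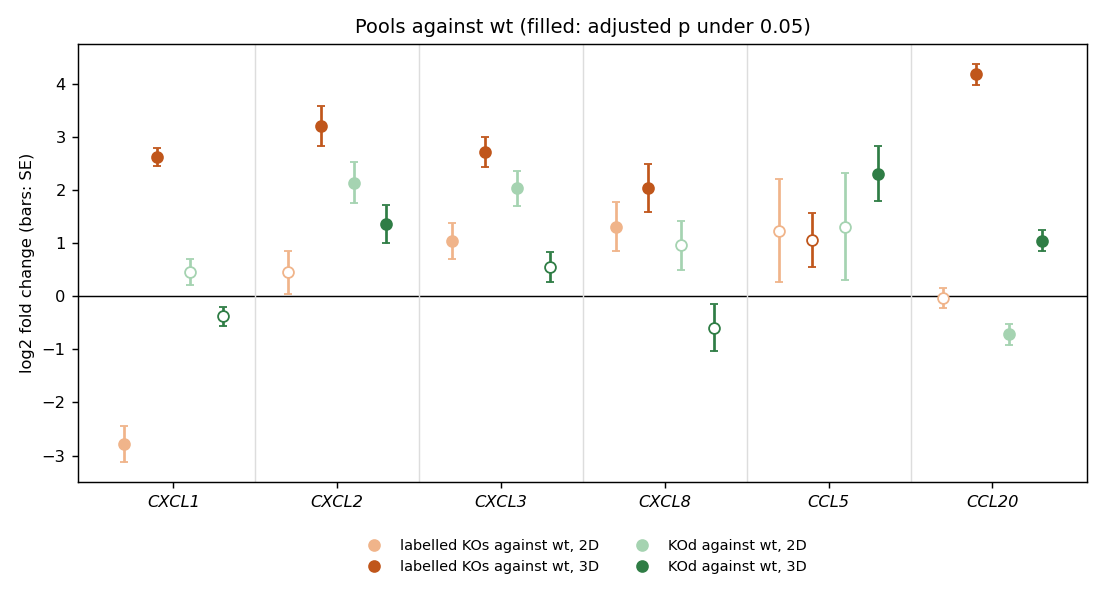
Difference of each pool from wt in 2D and in 3D, as log2 fold change with SE; filled points passed at an adjusted p under 0.05. In labelled KOs CXCL1 lies at -2.79 in 2D and 2.62 in 3D, and CCL20 at -0.03 and 4.18.

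In 2D, KOd had 3 members above labelled KOs and 1 below (28.8% and 30.7%). CXCL1 was 9.51-fold higher in KOd 2D (3.25 ± 0.32, adjusted p = 1.2e-07). CXCL2 was higher by 1.69 ± 0.37 (adjusted p = 0.00076; 2.69 without labelled KOs 2D B) and CXCL3 by 0.99 ± 0.30 (adjusted p = 0.0079). CCL20 was lower in KOd 2D (-0.69 ± 0.19, adjusted p = 0.0055), with overlapping libraries, and that call was lost in 1 of 9 other settings. CXCL8 differed by -0.35 ± 0.45 (adjusted p = 0.52), a value that was -0.84 and passed without labelled KOs 2D A and was 0.24 without labelled KOs 2D C. CCL5 differed by 0.08 ± 0.80 (adjusted p = 0.95), by 2.58 with the call gained without labelled KOs 2D A, and by -0.38, -0.43 and -0.45 without labelled KOs 2D B, labelled KOs 2D C and KOd 2D C.
In 3D, 5 members were lower in KOd than in labelled KOs and 1 was higher (23.9% of genes higher and 23.3% lower). CXCL1 was 8.02-fold lower and CCL20 8.76-fold lower in KOd 3D (both adjusted p = 5.6e-10). CCL5 was the member that was higher (1.25 ± 0.50, adjusted p = 0.047), and that call was lost in 13 of the 20 fits that left out 1 library, over which its value ran from 0.91 (without KOd 3D C) to 1.42 (without KOd 3D A).

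Whether a pool responded to 3D culture differently from wt was tested as the difference of their responses. For labelled KOs 4 members responded more and 0 less (17.9% and 19.0% of genes). These were CXCL1 by 5.41 ± 0.37 (adjusted p = 1.9e-08), CCL20 by 4.21 ± 0.27 (adjusted p = 9.9e-09), CXCL2 by 2.76 ± 0.54 (adjusted p = 0.00072; 3.75 without labelled KOs 2D B) and CXCL3 by 1.67 ± 0.44 (adjusted p = 0.007). CXCL8 (0.73 ± 0.63, adjusted p = 0.39) did not pass. The CCL5 value of -0.17 ± 1.06 (adjusted p = 0.92) did not pass either and was 2.34 without labelled KOs 2D A, 0.43 without wt 3D C and 0.07 without wt 2D B.
For KOd 1 member responded more and 2 less (14.4% and 14.7% of genes). CCL20 rose where it fell in wt (1.77 ± 0.29, adjusted p = 0.00017), and CXCL3 rose less (-1.49 ± 0.44, adjusted p = 0.017), as did CXCL1 (-0.84 ± 0.30, adjusted p = 0.041). The CXCL3 call was lost in 1 of 10 other settings, with the 3 copies summed (-1.05). The CXCL1 call was lost in 13 of the 20 fits without 1 library, at values of -0.88 (without wt 2D A) to -0.72 (without wt 3D A, KOd 2D C or KOd 3D A), and in 7 of 10 other settings, limma-voom (-0.83) among them. CXCL8 differed by -1.55 ± 0.64 (adjusted p = 0.077), which passed without wt 3D C (-1.82), labelled KOs 2D A (-1.55) or labelled KOs 2D C (-1.55). CXCL2 differed by -0.79 ± 0.52 (adjusted p = 0.28) and passed without labelled KOs 2D B (-0.78), and CCL5 did not pass (0.99 ± 1.21, adjusted p = 0.58).

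Receptors of the members were read at low levels in these cells. CXCR1 had 0 reads in all libraries, and CXCR2 averaged at most 0.249 CPM in a group, CCR2 0.0233 and CCR6 0.142. CCR1, a receptor of CCL5, averaged 4.46 CPM in labelled KOs 3D, 0.818 in KOd 3D and 0.260 in wt 3D. ACKR1, which binds many chemokines without signalling, averaged 7.78 CPM in wt 2D, 2.69 in wt 3D and 1.65 in tumorsphere medium, but 3.79 and 9.88 in labelled KOs 2D and 3D, and 5.01 and 8.61 in KOd 2D and 3D. Of 15 listed receptors 5 were tested, of which 3 rose and 1 fell in wt 3D, 3 and 1 in labelled KOs 3D, 3 and 0 in KOd 3D, and 0 and 1 in tumorsphere medium. In the same order, 33.3%, 32.9%, 35.2% and 15.6% of all genes rose and 30.4%, 32.1%, 31.2% and 16.4% fell. CCR3 had most of its reads in labelled KOs 3D and ACKR4 in wt 3D, and they passed the filter through those groups. CCR1 had 552 reads in labelled KOs 3D and 77 in KOd 3D, and passed the filter through these 3D groups. The receptor counts in 3D thus follow in part from the filter.
Of 28 other chemokines 8 were tested, and 7 rose in wt 3D, 6 in labelled KOs 3D, 8 in KOd 3D and 1 in tumorsphere medium, with 0 lower. Of all genes 33.3%, 32.9%, 35.2% and 15.6% rose, so the 1 of 8 in tumorsphere medium lay near that share. CXCL12 had most of its reads in wt 3D and CCL3 in labelled KOs 3D, and they passed the filter through those groups. CX3CL1 had 844, 1344 and 3182 reads in 3D of wt, labelled KOs and KOd. It passed the filter through these groups. The counts of rises in 3D thus follow in part from the filter. The gene raised in tumorsphere medium was CXCL16, a membrane-bound ligand of CXCR6 (1.85 ± 0.26, and 2.47 ± 0.24 in wt 3D). CX3CL1, another membrane-bound chemokine, averaged 0.0131 CPM in wt 2D, 0.135 in tumorsphere medium, 9.50 in wt 3D, 10.9 in labelled KOs 3D and 35.2 in KOd 3D, the same order of these groups as CCL5. CXCL10 and CXCL11, ligands of CXCR3, averaged 8.85 and 10.7 CPM in wt 3D, 3.05 and 2.06 in labelled KOs 3D, 14.2 and 25.7 in KOd 3D, and 0.342 and 0.402 in tumorsphere medium. CXCL5, CXCL6 and CCL2 thus stayed near 0 in cultures where other chemokines of both families were read.

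The cytokines that are known to switch the members on were measured beside them. IL1B was at 0.335, 0.432 and 0.878 CPM in wt 2D (lowest to highest), 49.1 and 62.5 in tumorsphere medium, and 4.11, 5.88 and 6.20 in wt 3D. Like CXCL8, CXCL2 and CXCL3, IL1B was higher in tumorsphere medium than in wt 3D without overlap, with rises over wt 2D of 6.65 ± 0.28 (adjusted p = 5.5e-11) and 3.28 ± 0.29 (adjusted p = 3.1e-08). In labelled KOs IL1B went from 2.49 to 212 CPM on average (6.41 ± 0.23, adjusted p = 6.6e-13) and in KOd from 1.38 to 14.4 (3.37 ± 0.23, adjusted p = 1.3e-09). IL1A averaged 1.24 CPM in wt 2D, 54.1 in tumorsphere medium, 16.6 in wt 3D, 94.1 in labelled KOs 3D and 32.4 in KOd 3D. Both interleukin-1 genes were above wt in both pools. In 3D IL1B was higher by 5.30 ± 0.22 in labelled KOs and 1.41 ± 0.20 in KOd, and in 2D IL1A was higher by 1.71 ± 0.33 and 3.17 ± 0.32. TNF was at 0.0377 CPM in wt 2D and 0.155 in tumorsphere medium, and at 1.25, 1.10 and 1.05 in 3D of wt, labelled KOs and KOd.

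**Figure D5:**
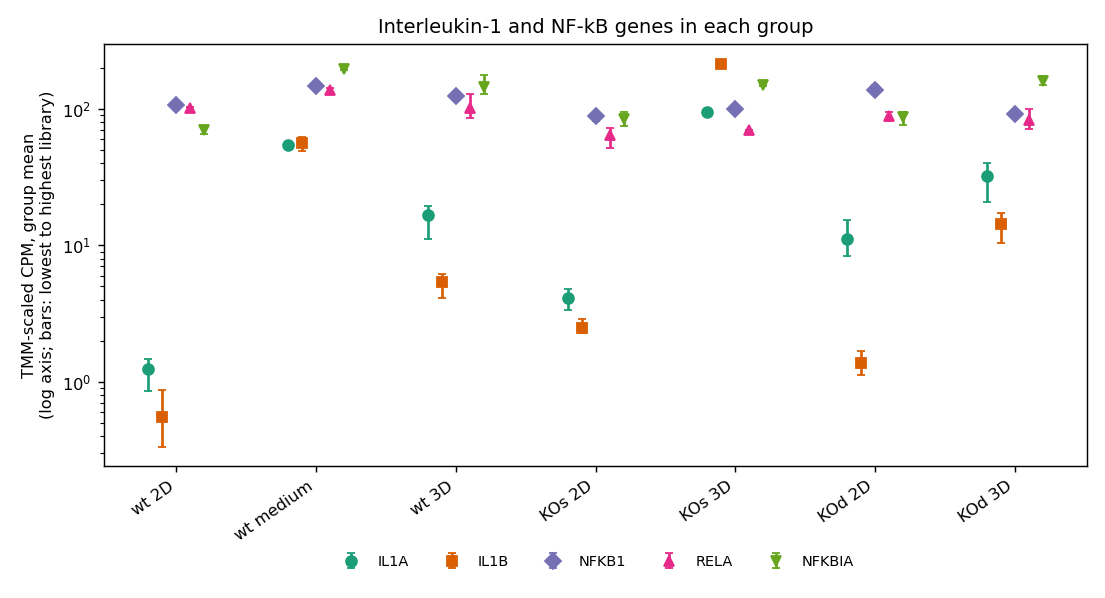
Interleukin-1 and NF-kB genes in each group, on a log axis of TMM-scaled CPM; points are group means and bars run from the lowest to the highest library. IL1B spans 0.548 CPM in wt 2D to 212 in labelled KOs 3D, whereas NFKB1 lies between 88.0 and 146 and RELA between 64.0 and 138.

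Of 20 upstream ligands, receptors and adaptors tested, 12 rose and 2 fell in wt 3D, 7 and 5 in labelled KOs 3D, 12 and 3 in KOd 3D, and 7 and 3 in tumorsphere medium. Over all genes 33.3%, 32.9%, 35.2% and 15.6% rose in these comparisons and 30.4%, 32.1%, 31.2% and 16.4% fell. The 7 of 20 that rose in labelled KOs 3D thus lay near the share of all genes. IRAK2, a kinase of the interleukin-1 receptor complex, rose in these 4 comparisons by 2.90 ± 0.12, 1.91 ± 0.11, 1.74 ± 0.11 and 2.54 ± 0.13. Of 15 NF-kB subunits, kinases and inhibitors, 10 rose and 2 fell in wt 3D, 11 and 1 in labelled KOs 3D, 7 and 3 in KOd 3D, and 11 and 1 in tumorsphere medium, with medians of 0.77, 0.79, 0.30 and 1.21. TNFAIP3, which encodes the inhibitor A20, rose by 1.95 ± 0.13, 2.48 ± 0.13, 1.45 ± 0.12 and 3.04 ± 0.14. NFKBIA, which encodes the inhibitor IkB-alpha, rose by 1.05 ± 0.12, 0.83 ± 0.12, 0.87 ± 0.12 and 1.48 ± 0.13. In tumorsphere medium RELB rose by 2.50 ± 0.20 and NFKB1 by 0.45 ± 0.08. These are mRNA levels, and NF-kB activity was not measured.
Against wt in 3D, 5 of the 15 NF-kB genes were higher and 3 lower in labelled KOs (27.8% and 28.5% over all genes), and 4 were higher and 1 lower in KOd (16.5% and 17.5%). Among 14 other transcription factors known at chemokine promoters, 9 rose and 1 fell in wt 3D, 8 and 2 in labelled KOs 3D, 7 and 4 in KOd 3D, and 7 and 1 in tumorsphere medium. Shares of all genes in these 4 culture comparisons were 33.3%, 32.9%, 35.2% and 15.6% for rises and 30.4%, 32.1%, 31.2% and 16.4% for falls. CEBPB, whose product binds the CXCL8 promoter, was higher in tumorsphere medium than in wt 2D (1.24 ± 0.13) and in labelled KOs 3D than in wt 3D (0.95 ± 0.12). ATF3, a stress-induced factor, was higher in KOd 2D than in wt 2D (3.27 ± 0.23) and fell with 3D culture in KOd (-2.35 ± 0.22).
Of 7 regulators of chemokine mRNA decay, 2 rose and 4 fell in wt 3D, 2 and 4 in labelled KOs 3D, 1 and 4 in KOd 3D, and 3 and 1 in tumorsphere medium. In the same order, 33.3%, 32.9%, 35.2% and 15.6% of all genes rose and 30.4%, 32.1%, 31.2% and 16.4% fell. The 2 of 7 that rose in wt 3D and in labelled KOs 3D lay near those shares. HNRNPD, which encodes the decay factor AUF1, fell by 1.03 ± 0.13 in wt 3D. ZC3H12A, which encodes the RNase Regnase-1, rose by 2.89 ± 0.38 in tumorsphere medium, 2.90 ± 0.35 in labelled KOs 3D and 2.52 ± 0.36 in KOd 3D. Of 7 tested enzymes that cut chemokines, 3 rose and 1 fell in wt 3D. In each pool in 3D, 5 rose and 0 fell, against the same shares of all genes. MMP14 rose by 3.14 ± 0.24 in wt 3D, 3.44 ± 0.25 in labelled KOs 3D and 3.82 ± 0.25 in KOd 3D, and MMP1 was higher in labelled KOs 3D than in wt 3D (4.78 ± 0.65).

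Markers of other cell types were read beside the 3D results. The 16 leukocyte markers summed to 2.01 to 2.86 CPM in wt 2D, 2.63 to 3.94 in labelled KOs 2D, 2.51 to 3.21 in KOd 2D, 2.08 to 2.24 in tumorsphere medium, 4.65 to 5.61 in wt 3D, 7.16 to 8.75 in labelled KOs 3D and 6.61 to 9.32 in KOd 3D. MS4A1 and NKG7 were at 0 in all libraries. The 7 endothelial markers summed to 7.56 to 10.8 CPM in wt 2D, 8.43 to 42.2 in labelled KOs 2D, 7.49 to 8.82 in KOd 2D, 10.4 to 10.5 in tumorsphere medium, 50.7 to 73.3 in wt 3D, 31.2 to 36.2 in labelled KOs 3D and 90.3 to 97.5 in KOd 3D. The highest labelled KOs 2D library thus lay above all labelled KOs 3D libraries. Most of the 3D sums was PECAM1 (59.3, 33.4 and 93.0 CPM on average), CLDN5 was at 0 in all libraries, and CDH5 was at 0 in KOd 3D. Of the 4 endothelial markers tested, 1 rose and 1 fell in wt 3D. In each pool in 3D, 1 rose and 2 fell. Their median changes were -2.30, -1.65 and -1.85 in wt, labelled KOs and KOd. Of all genes 33.3%, 32.9% and 35.2% rose and 30.4%, 32.1% and 31.2% fell. The part of these markers in the results for CCL5 and the other members was not tested.

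The genes whose log2 CPM followed a member most closely over the 20 libraries are given as a description, since the libraries fall into 7 groups and share their scaling. For CXCL8 they were IER3 (Pearson r = 0.922), CXCL3 (0.916) and IL1B (0.899). For CXCL1 they were HDAC10 (0.937), TMEM132A (0.935) and LIF (0.934), and for CCL20 TFPI2 (0.946), MYRF (0.935) and PPFIA3 (0.932). CCL2 was too low for such a ranking.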

How the data were processed

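The deposited table held whole-number read counts per Entrez gene for the 20 libraries and a gene length. Per the labels' protocols, libraries were stranded mRNA-seq (TruSeq), and STAR and hg38 are named in the submitters' processing notes. The counting tool, its strand setting and the annotation are not given in the sources used here. From the deposited counts, low genes were removed with filterByExpr, libraries were scaled by TMM, and edgeR 4.0.16 (R 4.3.3) fitted quasi-likelihood models with 1 coefficient per group over the 20 libraries (13 residual degrees of freedom). Benjamini-Hochberg adjustment covered 16323 genes in each of 13 comparisons, with a threshold of 0.05; adjusted p-values are two-sided. Each SE was derived from the test, as the size of the log2 change divided by the square root of its F statistic. It was not estimated separately and may be too small where reads are few. The 95% interval given for CCL5 was built on it. Log2 CPM used a prior count of 2. The fit was tested on simulated data.

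Of 27864 IDs, 27740 matched a RefSeq symbol. Coordinates and promoters are those of RefSeq GRCh38.p14, the build family of the submitters' notes. The members and gene lists were chosen with earlier results of these data known. Named beside them are IL1A, IL1B, TNF, NFKB1, RELA, NFKBIA, up to 3 genes per list and comparison with the smallest adjusted p, and the 3 genes most like CXCL1, CXCL8 and CCL20 (mean log2 CPM of at least 2); receptors and other chemokines given by level alone were chosen after their values were seen. Nothing in the labels says that replicates came from separate cultures; p-values then reflect the spread among libraries, which may be technical. Same-letter libraries deviated together (r over 0.1 in each pair) for wt 3D with KOd 3D alone, with r of 0.210 to 0.342. Alternatives were library totals, RLE factors, other filters and thresholds, DESeq2 1.42.0, limma 3.58.1 (voom), a replicate block, the compared groups alone, CXCL1 to CXCL3 summed, and each library left out.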

Additional observations from a re-analysis of the deposited data

Results flagged for a closer look

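The response to 3D culture differed between labelled KOs and wt, by a test of the difference itself, in CXCL1 (5.41 on the log2 scale), CCL20 (4.21), CXCL2 (2.76) and CXCL3 (1.67). It differed between KOd and wt in CCL20 (1.77), CXCL3 (-1.49) and CXCL1 (-0.84). For KOd, the CXCL1 call did not hold in 13 of the 20 fits without 1 library nor in 7 of 10 other settings. The CXCL3 call for KOd did not hold in 1 of 10 other settings. CCL20 is the member whose direction turned: it fell in wt and rose in both pools.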

How the results depend on the processing

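The number of members past the threshold moved by over 1.5 times in the comparisons given first. For labelled KOs 2D against wt 2D it was 3, and it was 1 at an adjusted p under 0.01, with limma-voom, with the compared groups alone and with CXCL1 to CXCL3 summed; without 1 library it ran from 1 to 3. For KOd 2D against labelled KOs 2D it went from 4 to 2 when a log2 change of 1 or more in size was also required, and to 6 without labelled KOs 2D A or without the 3 libraries that stand apart. For the response of KOd minus that of wt it went from 3 to 1 at an adjusted p under 0.01 and with the 3 copies summed. For KOd 3D against KOd 2D it went from 3 to 5 with the compared groups alone, with the copies summed and without those 3 libraries, and ran from 2 to 5 without 1 library. It also went from 3 to 5 for KOd 2D against wt 2D (compared groups alone, and without those 3 libraries) and for KOd 3D against wt 3D (copies summed, and without those 3 libraries). Summed copies count 3 times. When a log2 change of 1 or more in size was also required, the count went from 3 to 2 for KOd 2D against wt 2D. It did the same for KOd 3D against KOd 2D. Smaller moves were from 5 to 6 for labelled KOs 3D against wt 3D and for tumorsphere medium against wt 2D, from 6 to 5 for wt 3D against tumorsphere medium and for KOd 3D against labelled KOs 3D, and from 4 to 5 for the response of labelled KOs minus that of wt.

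The following values changed direction. CCL5 in the response of labelled KOs minus that of wt was 0.057 with library totals, 1.13 with limma-voom and 3.01 without the 3 libraries, and ran from -0.69 to 2.34 without 1 library. CCL5 in KOd 2D against labelled KOs 2D was -0.013 with the replicate block and ran from -0.45 to 2.58 without 1 library. CXCL8 in the same comparison was 0.14 with limma-voom and ran from -0.84 to 0.24. For labelled KOs 2D against wt 2D, without 1 library CCL20 ran from -0.23 to 0.18, CCL5 from -1.27 to 1.75 and CXCL2 from -0.55 to 0.81; without the 3 libraries CCL5 was -1.27 and CCL20 0.18. CXCL8 in the response of labelled KOs minus that of wt was then -0.010. With the copies summed, the value standing for CXCL1 was 0.45 in labelled KOs 2D against wt 2D and 0.95 in KOd 3D against wt 3D. The cause was not tested. The replicate block over all libraries also moved CXCL2 in KOd 3D against KOd 2D past the threshold (0.77) and CCL5 in KOd 3D against labelled KOs 3D short of it (1.18). The fits without 3 libraries and with a block in wt 3D and KOd 3D alone were chosen after seeing the data. Depth limits CXCL5, CXCL6 and CCL2, and CXCL1 and CCL5 in labelled KOs 2D.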
